A study of Mus musculus with 12 samples.

Results

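Tgm2, Dhrs3, Hic1, Osgin1, Dtx4, Fbln2, Wnt10a, Rara and Rarg are 9 genes whose messenger RNA was followed in mouse CD8+ T cells. They are linked to vitamin A signalling, to the Notch and Wnt pathways, to the cell surroundings or, for Osgin1, to oxidative stress. They are 9 of the 13882 named genes, within 25738 features, that passed the filter on dim probes. They were chosen from the difference between gut-draining mesenteric lymph nodes (MLN) and peripheral lymph nodes (PLN) in these same arrays, except that Rara and Rarg are there as the receptors of retinoic acid. Their MLN and PLN values are therefore given as a description with no test, while the comparisons of genotype and of Sca-1 sorting were not used in the choice.

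The 12 samples, each hybridised to 1 Agilent 1-colour array, all came from female C57BL/6 mice, and the submitters describe the design as unreplicated. Total CD8+ T cells came from MLN of uMT, AID KO and WT mice and from PLN of the same 3 genotypes, with 1 array each for uMT and AID KO and 2 arrays for WT at each site. Naive (CD44low) CD8+ T cells were taken from PLN only. They were split into a Sca1p and a Sca1m fraction, names that the sorting protocol lets one read as Sca-1 positive and Sca-1 negative, with 1 array per fraction from uMT and from AID KO mice and none from WT mice. All cells were enriched with magnetic beads and then sorted by flow cytometry. Mice of the uMT line lack mature B cells. The labels give neither the alleles, the age nor the number of animals behind a sample, so AID KO stands here for arrays labelled AID KO. A check of that genotype in these data did not bear out its label, and whether it read the altered part of the gene is not known, so the direction of every AID KO value below rests on a label in doubt. P-values weigh a fitted difference against the residual spread of these samples around the fit, which is not a spread between animals.

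Retinoic acid is made from vitamin A by retinol and retinaldehyde dehydrogenases, and dendritic cells and stromal cells of gut-draining nodes are known for making it. It binds the nuclear receptors RAR-alpha, RAR-beta and RAR-gamma, which pair with RXR receptors on DNA, and it is known to imprint gut-homing receptors on T cells activated in those nodes. Cells limit the signal by reducing retinaldehyde back to retinol and by oxidising retinoic acid with CYP26 enzymes. These receptors bind DNA at short motifs built on AGGTCA or close relatives, usually as a direct repeat.

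To set the genes beside the motifs of these receptors, the 250 bases before their transcription starts were read from RefSeq on GRCm38.p6, which held 13 windows of 6 of the 9 genes, Rara and Rarg included. Capitals mark 1 of 4 receptor motifs on either strand, overlaps included. They are the canonical AGGTCA and the variants GGGTCA as well as AGTTCA and the related GGTTCA. Dhrs3 is shown because it differed most between sites among the 6 genes and none of its 3 windows held such letters, the first lying at chr4:144892577-144892826 (+ strand). Hic1 at chr11:75170256-75170505 (- strand) and Osgin1 at chr8:119436897-119437146 (+ strand) are shown as higher genes with such letters. Rara at chr11:98939461-98939710 (+ strand) and Rarg at chr15:102257523-102257772 (- strand) are shown as the receptors themselves.
Dhrs3: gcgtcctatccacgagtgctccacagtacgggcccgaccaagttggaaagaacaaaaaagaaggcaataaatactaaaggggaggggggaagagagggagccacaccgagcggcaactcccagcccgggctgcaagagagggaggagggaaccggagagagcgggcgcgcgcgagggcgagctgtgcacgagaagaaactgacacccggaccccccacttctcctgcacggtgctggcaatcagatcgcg
Hic1: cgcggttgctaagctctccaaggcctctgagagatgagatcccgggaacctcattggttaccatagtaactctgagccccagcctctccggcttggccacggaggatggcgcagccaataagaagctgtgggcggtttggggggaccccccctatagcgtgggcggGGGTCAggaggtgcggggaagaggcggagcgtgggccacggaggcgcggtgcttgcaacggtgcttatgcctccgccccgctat
Osgin1: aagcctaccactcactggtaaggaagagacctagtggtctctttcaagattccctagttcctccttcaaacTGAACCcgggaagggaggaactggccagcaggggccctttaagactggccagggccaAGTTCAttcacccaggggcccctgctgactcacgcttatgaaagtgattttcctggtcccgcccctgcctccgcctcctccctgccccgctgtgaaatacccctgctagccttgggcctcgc
Rara: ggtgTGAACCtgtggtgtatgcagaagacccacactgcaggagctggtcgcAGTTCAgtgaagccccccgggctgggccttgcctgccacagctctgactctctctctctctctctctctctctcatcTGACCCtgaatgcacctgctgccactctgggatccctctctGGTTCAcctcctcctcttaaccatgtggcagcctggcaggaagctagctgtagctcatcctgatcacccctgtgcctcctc
Rarg: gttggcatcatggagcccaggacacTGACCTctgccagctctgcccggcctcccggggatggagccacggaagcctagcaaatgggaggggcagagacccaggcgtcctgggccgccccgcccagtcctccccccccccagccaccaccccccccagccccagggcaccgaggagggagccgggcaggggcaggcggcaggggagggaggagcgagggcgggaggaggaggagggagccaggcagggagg

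The Hic1 window held GGGTCA starting 84 bases before the transcription start. The Osgin1 window held AGTTCA at 122 bases on the forward strand and GGTTCA at 179 bases on the reverse strand. The Rara window held 4 such runs and the Rarg window held AGGTCA at 225 bases on the reverse strand. At least 1 of the 4 forms was found in 5 of the 13 windows, against 38.6% of all 32851 windows in the table, and AGGTCA itself in 1 of the 13, against 14.0% of all. No member window held a direct repeat spaced by 2 or by 5 bases, which 0.174% and 0.0883% of all windows hold. A match describes letters only, and a window without one covers only these 250 bases.

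Levels are log2 processed intensities relative to the 75th percentile of each array, so that a level of 0 equals that percentile. Between 50.1% and 56.8% of spots per array were flagged as well above background, the 75th percentile ranged from 431.5 to 786.9, and no spot was saturated. All 12 CD8 T cell identity genes on the marker list, among them Cd8a, Cd8b1 and Cd3e, were well above background on the arrays of both sites, and none passed the test between sites. Ly6a, the gene for Sca-1, matched the sort, with 3.87 and 3.40 in Sca1p arrays and 0.03 and -0.10 in Sca1m arrays. The total-cell arrays lie on 2 slides, each with 2 MLN and 2 PLN arrays, so that slide and site are not confounded. The uMT and AID KO pairs of sites each span both slides, whereas each WT pair shares a slide.

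In MLN cells, 6 of the 9 genes were higher and 1 was lower than in PLN cells without overlap between the 4 MLN and the 4 PLN arrays, and the levels of the receptors Rara and Rarg overlapped. Across all features, 1.16% had every MLN array above every PLN array and 0.995% had every MLN array below, and since the genes were chosen on this difference, nothing is read from their counts. The fit called 27 features between sites at an adjusted p under 0.05, or 0.105% of 25738, with 24 higher and 3 lower in MLN cells. In these bulk samples, fewer cells of a type and less RNA per cell cannot be told apart.

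**Figure D1:**
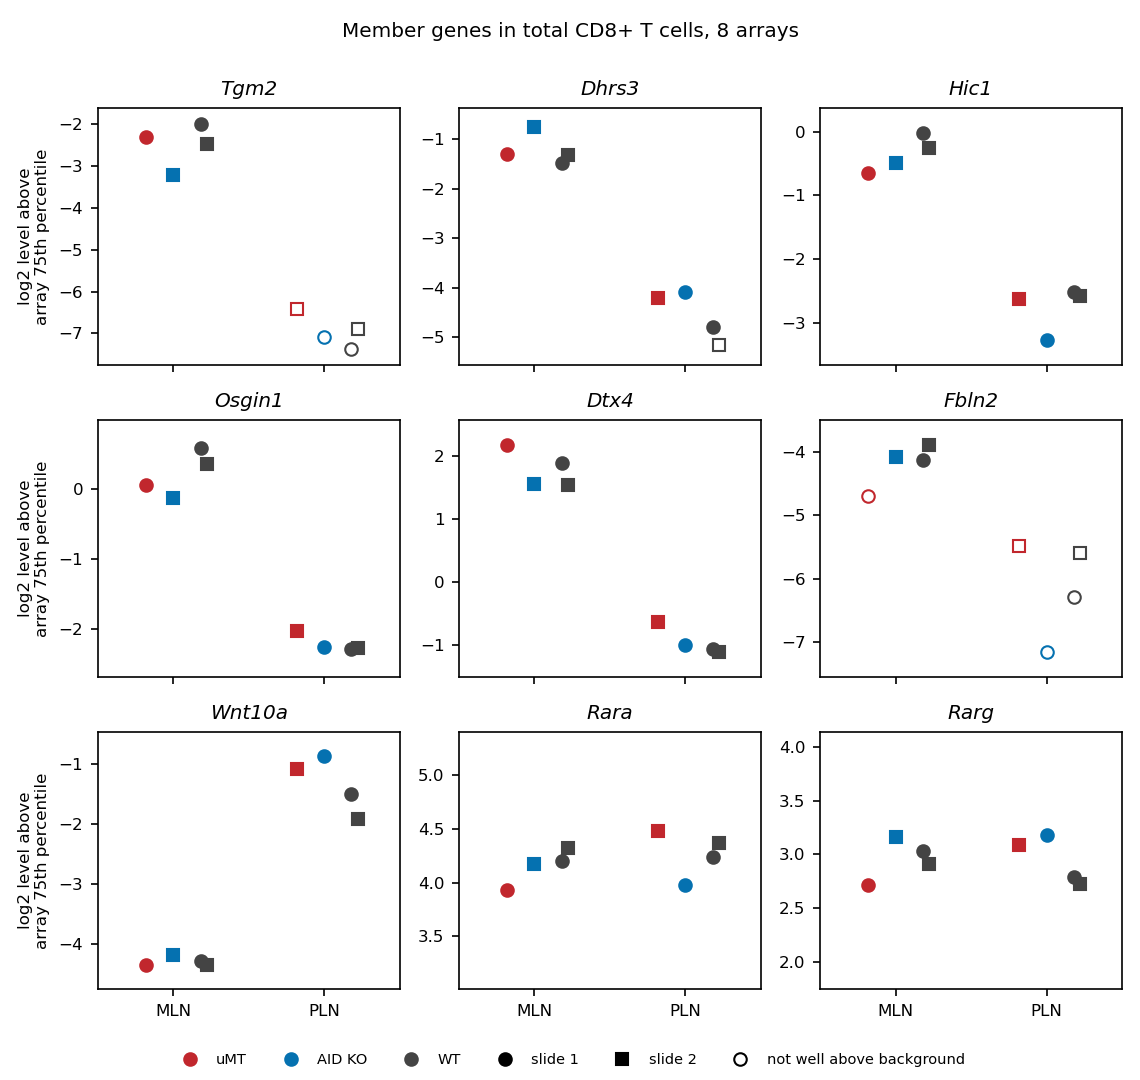
Level of each gene on the 8 arrays of total CD8+ T cells, in log2 units relative to the array's 75th percentile, by lymph node site, genotype (colour) and slide (shape), with open symbols where the spot was not well above background. For Tgm2, Dhrs3, Hic1, Osgin1, Dtx4 and Fbln2 the 4 MLN arrays lie above the 4 PLN arrays, for Wnt10a they lie below, and for Rara and Rarg the sites overlap.

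Tgm2 encodes transglutaminase 2, an enzyme that cross-links proteins and a classical retinoic acid responsive gene. Its level was -2.30 in the uMT MLN sample, -3.21 in the AID KO MLN sample, and -2.0 and -2.46 in the WT MLN samples. In PLN it was -6.42 in the uMT sample, -7.09 in the AID KO sample, and -7.36 and -6.89 in the WT samples, none of them well above background. The lowest MLN array thus stood above the highest PLN array, and Tgm2 was detected on the MLN arrays alone among the 12. Against the lowest signal called well above background on the PLN arrays, Tgm2 was at least 6.18-fold higher in MLN cells, a bound that was set from means of 4 arrays each. The fitted difference of 4.45 ± 0.25 log2 units (SE) rests on dim PLN spots, and it was 1.40 after normexp background correction.

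Dhrs3 encodes a dehydrogenase that reduces retinaldehyde to retinol and is known to be induced by retinoic acid. Its level was -1.30 in the uMT, -0.76 in the AID KO and -1.48 and -1.32 in the WT MLN samples. It was -4.21 in the uMT, -4.09 in the AID KO and -4.81 and -5.17 in the WT PLN samples, with the second WT sample not well above background. All 4 MLN arrays lay above all PLN arrays, by 2.92 log2 units in uMT, 3.33 in AID KO and 3.33 and 3.86 in the WT pairs. On a linear scale the 3 pairs with detected PLN spots differed by 7.56-fold to 10.04-fold, and the second WT pair by at least 13.8-fold against the lowest signal called well above background on its PLN array. The fitted difference was 3.36 ± 0.16 (SE), 1.86 after normexp correction and 2.13 as the mean of both Dhrs3 probes. The second, dimmer probe was well above background on 2 of the 12 arrays, both of them MLN, at -4.72 in AID KO and -4.70 in WT.

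Hic1 encodes a zinc finger transcriptional repressor that retinoic acid induces in T cells. Hic1 was measured well above background on all 12 arrays, with -0.65 in the uMT, -0.49 in the AID KO and -0.02 and -0.25 in the WT MLN samples. The PLN samples had -2.63 in uMT, -3.27 in AID KO and -2.52 and -2.59 in WT, so the sites did not overlap. Within a genotype the MLN sample was 3.94-fold to 6.88-fold higher, and the fitted difference was 2.40 ± 0.13 log2 units (SE). The AID KO pair had the largest Hic1 difference, 2.78 log2 units, and the uMT pair the smallest, 1.98.

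Osgin1 encodes an oxidative stress induced growth inhibitor. Its level was 0.06 in the uMT, -0.13 in the AID KO and 0.58 and 0.35 in the WT MLN samples, against -2.02 in the uMT, -2.25 in the AID KO and -2.28 and -2.26 in the WT PLN samples. Osgin1 was well above background on all 12 arrays, and both knockout MLN samples lay below both WT MLN samples. The fitted difference between sites was 2.42 ± 0.15 log2 units (SE), with 4.23-fold to 7.27-fold higher signal in MLN within a genotype.

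Dtx4 encodes a Deltex E3 ubiquitin ligase, a family known for regulating Notch receptors. MLN samples had Dtx4 levels of 2.19 in uMT, 1.56 in AID KO and 1.90 and 1.54 in WT, and PLN samples had -0.64 in uMT, -1.01 in AID KO and -1.07 and -1.11 in WT. Of the 6 higher genes, Dtx4 had the narrowest range of differences within a genotype, 5.92-fold to 7.84-fold. The fitted difference was 2.75 ± 0.12 log2 units (SE).

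Fbln2 encodes fibulin 2, a secreted protein of the extracellular matrix, and was the one higher gene not detected on every MLN array. MLN samples had -4.69 in uMT, where the spot was not well above background, -4.08 in AID KO and -4.12 and -3.89 in WT. PLN samples had -5.49 in uMT, -7.16 in AID KO and -6.29 and -5.59 in WT, none well above background. The sites did not overlap, but Fbln2 was measured on 3 of the 4 MLN arrays and on none of the 4 PLN arrays, which bounds the difference at no less than 1.90-fold. The fitted 1.94 ± 0.17 log2 units (SE) was 0.37 after normexp correction.

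Wnt10a encodes a secreted Wnt ligand and ran the other way. Its level was -4.35 in the uMT, -4.19 in the AID KO and -4.28 and -4.35 in the WT MLN samples. In PLN it was -1.09 in the uMT, -0.87 in the AID KO and -1.50 and -1.92 in the WT samples, all 8 of these total-cell spots being well above background. MLN samples held 0.100 to 0.186 times the PLN signal of their genotype, and the 4 MLN values lay within a much narrower span than the 4 PLN values. The MLN values were close to the lowest signal called well above background on their arrays. That signal was -4.51 in uMT, -5.13 in AID KO and -4.62 and -4.96 in WT MLN. Both the narrow span and the size of the difference are limited by such dim signal. The fitted difference was -2.95 ± 0.17 log2 units (SE), and -1.67 after normexp correction.

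The retinoic acid receptors had no such separation. Rara, encoding RAR-alpha, had 3.93 in the uMT, 4.17 in the AID KO and 4.20 and 4.33 in the WT MLN samples, against 4.48 in the uMT, 3.97 in the AID KO and 4.24 and 4.37 in the WT PLN samples. Its second probe ranged from 2.60 to 2.93 over MLN arrays and from 2.60 to 2.73 over PLN arrays, also overlapping. Rarg, encoding RAR-gamma, had 2.71 in the uMT, 3.16 in the AID KO and 3.03 and 2.91 in the WT MLN samples, against 3.09 in the uMT, 3.18 in the AID KO and 2.79 and 2.73 in the WT PLN samples. Both receptors were well above background on all 12 arrays. The fitted differences between sites were -0.11 ± 0.08 for Rara and 0.01 ± 0.12 for Rarg (log2, SE).

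**Figure D2:**
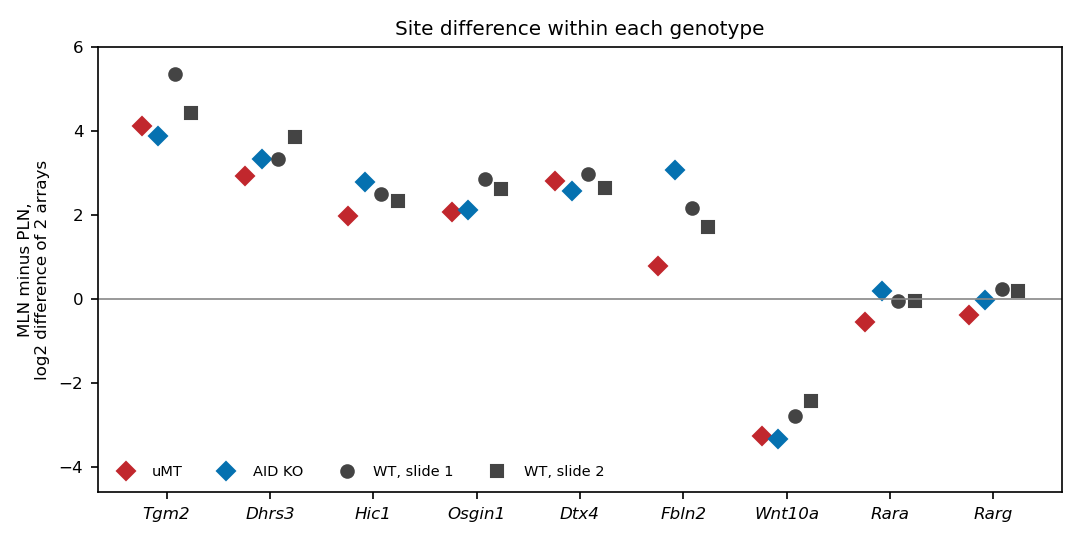
MLN minus PLN difference of each gene in log2 units within uMT, AID KO and each of the 2 WT pairs, each point being the difference of 2 arrays. Differences of Tgm2 and Fbln2, and that of Dhrs3 in the second WT pair, start from PLN spots that were not well above background, and Wnt10a is the gene whose 4 pairs all lie well below 0, between -3.32 and -2.43.

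The 6 higher genes differed in how they varied within a site. After the mean of each site was removed, their pairwise Pearson correlations over the 8 total-cell arrays ranged from -0.62 for Dhrs3 with Hic1 to 0.81 for Tgm2 with Osgin1. The next highest were 0.75 for Hic1 with Fbln2 and 0.68 for Tgm2 with Dtx4, while no PLN spot of Tgm2 or Fbln2 was well above background. These 8 arrays share 2 slides and the scaling, and these values are a description.

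With the site difference left in, the named genes whose profile over the 8 arrays was most like the mean of those 6 were Gadd45g (r = 0.990), Bcl3 (0.987), Gfi1 (0.979), P2rx7 (0.973) and Rasa3 (0.973), out of 12791 compared. Gadd45g, a stress-inducible growth arrest gene, had 2.92 in the uMT, 2.62 in the AID KO and 2.99 and 3.02 in the WT MLN samples, against 1.59 in the uMT, 1.09 in the AID KO and 1.41 and 1.43 in the WT PLN samples. Bcl3, an atypical member of the inhibitor family of NF-kappa-B, was also higher on each MLN array, by a fitted 1.52 log2 units, and the transcriptional repressor Gfi1 by 1.04. Nearest to Wnt10a were Gcnt1 (0.976), Niban2 (0.976) and Anxa1 (0.974). Niban2 differed between sites by a fitted -1.17, whereas Gcnt1 and Anxa1 were not well above background on any MLN array, so their likeness rests on undetected spots. Gcnt1 was at least 1.22-fold lower in MLN cells, and for Anxa1 no fold is given. Nearest to Rara were Gpr157 (0.988), Exosc9 (0.986) and Stk35 (0.981), and nearest to Rarg were Alas1 (0.973), Xrcc3 (0.948) and Srms (0.930). Srms was well above background on only 2 MLN and 3 PLN arrays, so its likeness rests in part on undetected spots. Since the 8 arrays form 2 groups by site, the r values of the first 2 profiles mostly reflect that step.

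Other genes of the retinoid pathway, taken from lists drawn up with earlier results of these arrays known, mostly did not pass the test between sites. Of the receptors, Rxra had 1.88 in the uMT, 2.05 in the AID KO and 2.26 and 2.0 in the WT MLN samples, against 2.49 in the uMT, 2.51 in the AID KO and 2.54 and 2.42 in the WT PLN samples. The Rxra levels did not overlap, but its fitted difference of -0.44 ± 0.09 did not pass (adjusted p = 0.235, limma). Rxrb differed by -0.01 ± 0.07 and Rarb by -0.23 ± 0.28, and 0 of the 3 measured receptors outside the 9 genes passed, with a median difference of -0.23 against -0.01 for all features. Rxrg was not kept by the filter.

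None of 6 receptor corepressors and coactivators passed, with Ncor1 at -0.06 ± 0.07, Ncoa2 at -0.19 ± 0.07, Ncoa3 at 0.13 ± 0.07 and Ncoa7 at 0.14 ± 0.16 log2 units. The largest difference on this list was that of Nrip1, picked out after its values were seen, at 0.34 ± 0.06 (adjusted p = 0.187, limma). Nrip1 was higher in MLN in 4 of 4 pairs, with overlapping levels. None of 3 measured genes on the binding and uptake list passed either, with Fabp5 at 0.05 ± 0.09, Stra6 at 0.06 ± 0.18 and Rtbdn at 0.30 ± 0.31. Rtbdn stands here by its place on that list alone. Its levels did not overlap, with -4.74 to -4.49 in MLN and -5.11 to -4.77 in PLN arrays. These levels were near the lowest signal called well above background. Among 11 measured retinol and retinaldehyde enzymes other than Dhrs3, 0 rose and 0 fell, with a median difference of -0.05. Dhrs4, Rdh12, Rdh13 and Rdh14, the brightest of them, differed by -0.04 ± 0.09, -0.19 ± 0.13, -0.05 ± 0.13 and -0.01 ± 0.09. The largest difference of these enzymes was that of the retinaldehyde dehydrogenase Aldh1a1, picked out after its values were seen. It was -0.54 ± 0.24 (adjusted p = 0.590, limma), with Aldh1a1 higher in MLN in 0 of 4 pairs. Its levels overlapped and were mostly near or under the lowest signal called well above background. The retinaldehyde dehydrogenases Aldh1a2 and Aldh1a3 and the retinoic acid oxidases Cyp26a1, Cyp26b1 and Cyp26c1 were well above background on fewer than 2 arrays and were not tested, and Cyp2s1 differed by -0.26 ± 0.08 (adjusted p = 0.395).

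Of 8 measured genes described elsewhere as responsive to retinoic acid, beside Tgm2, Dhrs3 and Hic1, 1 rose in MLN cells and 0 fell. It was P2rx7, an ATP-gated ion channel, by 2.67 ± 0.07 log2 units (SE, adjusted p = 0.000778, limma), higher in 4 of 4 pairs of sites. Of all features, 0.105% were called between sites in either direction. The list was drawn up with earlier results of these arrays known, so nothing is read from this count or p-value. The gut-homing genes Ccr9 (0.42 ± 0.08, adjusted p = 0.217), Itgb7 (0.31 ± 0.07, adjusted p = 0.248) and Itga4 (-0.14 ± 0.07, adjusted p = 0.646) did not pass, although Ccr9 and Itgb7 had higher values in MLN in 4 of 4 pairs and the Itgb7 levels did not overlap. Cd38, an ectoenzyme that consumes NAD and was picked out after its values were seen, had the largest difference short of a call, 0.76 ± 0.14 (adjusted p = 0.187, limma), with MLN arrays all above PLN arrays. The list's median was 0.18 against -0.01 for all features.

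Paralogs of the members mostly did not pass the test between sites. Of 13 measured, 1 rose and 0 fell, with a median of 0.01 log2 units, while 0.105% of all features were called in either direction. This list too was drawn up with earlier results known, so nothing is read from its count. The one that rose was Dtx1, a Deltex ligase like Dtx4, with 5.74 in the uMT, 5.90 in the AID KO and 6.08 and 5.83 in the WT MLN samples, against 4.43 in the uMT, 4.97 in the AID KO and 5.01 and 4.80 in the WT PLN samples. Its fitted difference was 1.08 ± 0.07 log2 units (SE, adjusted p = 0.00615, limma), higher in 4 of 4 pairs, but the call was lost whenever any 1 of the 8 total-cell arrays was left out, with adjusted p up to 0.0988. Dtx2 differed by -0.05 ± 0.07, Dtx3l by 0.27 ± 0.17, Dhrs7 by 0.04 ± 0.08 and Tgm3 by 0.06 ± 0.11, none passing. Fbln1 and Wnt10b were picked out after their values were seen. Fbln1 differed by 0.93 ± 0.42 (adjusted p = 0.590, limma) and was higher in MLN in 3 of 4 pairs. Wnt10b differed by -0.40 ± 0.40 (adjusted p = 0.849, limma) and was higher in 2 of 4 pairs.

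**Figure D3:**
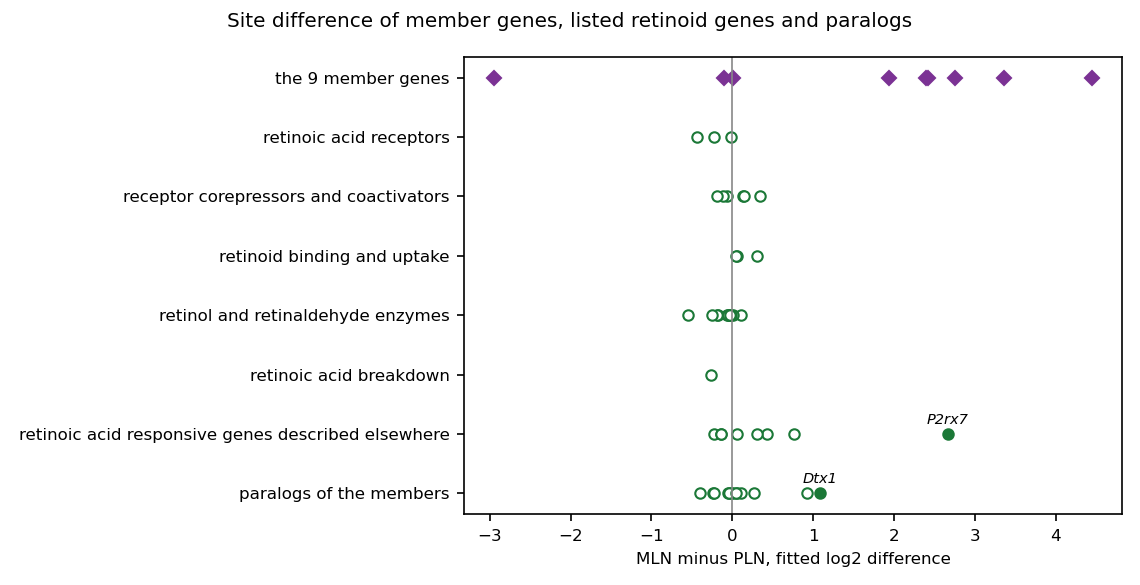
Fitted MLN minus PLN difference in log2 units for the 9 member genes (diamonds, no test) and for the measured genes of 7 lists of retinoid genes and paralogs (circles, filled where the adjusted p was under 0.05). P2rx7 and Dtx1 are the filled circles.

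Markers of other cell types, and of intraepithelial and resident T cells, were measured beside these differences. Of 9 B cell markers, 5 were kept, and Ms4a1, Blk, Ebf1 and Fcer2a were not. Their summed linear level, in multiples of the array's 75th percentile, was 5.17 to 6.34 over MLN arrays and 4.40 to 7.05 over PLN arrays. Of 10 dendritic cell markers 4 were kept, without Flt3, Clec9a, Xcr1, Cd209a, Batf3 and Aldh1a2, and their sum was 147 to 241 in MLN and 153 to 266 in PLN arrays, mostly from Ccr7 and Siglech probes. The 5 of 10 macrophage and monocyte markers that were kept summed to 2.26 to 3.85 in MLN and 1.86 to 3.72 in PLN arrays, with Adgre1, C1qa, C1qc, Siglec1 and Lyz2 not kept. For stroma and endothelium 3 of 14 were kept, at 0.707 to 1.01 in MLN and 0.819 to 1.05 in PLN arrays, with Pdgfra, Pdgfrb, Col3a1, Dcn, Cdh5 and 6 others not kept. The CD4 T cell list (5 of 6 kept) summed to 7.69 to 9.01 in MLN and 8.66 to 13.1 in PLN arrays. The NK and innate-like list (3 of 7 kept, without Ncr1) summed to 25.1 to 39.8 in MLN and 34.1 to 43.2 in PLN arrays, and the intraepithelial and resident T cell list (8 of 8) to 39.2 to 47.5 in MLN and 44.3 to 54.4 in PLN arrays. The summed ranges of all these lists overlapped between sites, and no gene on them passed the test between sites. The B cell sum came mostly from Cd79b, the CD4 sum from Icos and the NK sum from Klrd1. In uMT the B cell sum was 5.93 in MLN and 5.13 in PLN. In WT it was 5.17 and 5.28 in MLN and 4.80 and 4.40 in PLN. A sum led by a single gene cannot show how many cells of a type were present, so nothing is concluded from the overlap. Single markers did separate. Of 33 kept, 3 had every MLN array above every PLN array and 2 had every one below, against 1.16% and 0.995% of all features. These 5 were picked out after their values were seen. On the intraepithelial and resident T cell list are Gzma, Gzmb, Xcl1 and Cxcr6, and Icos is on the CD4 T cell list. Gzma, encoding the cytotoxic protease granzyme A, differed by 1.93 ± 0.24 log2 units (adjusted p = 0.086, limma), with 2.0 in the uMT, 2.34 in the AID KO and 0.84 and 1.01 in the WT MLN samples, against -0.09 in the uMT, -0.47 in the AID KO and -0.38 and -0.61 in the WT PLN samples. Gzmb (granzyme B) differed by 0.69 ± 0.23 and the chemokine gene Xcl1 by 0.35 ± 0.15, while the costimulatory receptor gene Icos differed by -0.54 ± 0.11 and the chemokine receptor gene Cxcr6 by -0.44 ± 0.11. The part of these cells and markers in the members' levels was not tested.

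Whether the 9 genes differed by genotype was asked next in total cells, with WT as the shared control of both labelled knockouts. In arrays labelled AID KO, the test called 0 of the 9 genes, while 230 of 25738 features or 0.894% were called, and 15 features once each knockout array was set against the WT array with which it shares site and slide in a paired fit. An unadjusted p under 0.05 was found for 3 of the 9 genes, against 14.4% of all features. Dhrs3 had the lowest adjusted p, with a difference of 0.77 ± 0.20 log2 units (SE, 95% interval 0.28 to 1.25, adjusted p = 0.161, limma). Against the WT array that shares slide and site it was higher by 0.56 in MLN and by 0.72 in PLN, whereas the 2 WT samples differed by 0.16 in MLN and by 0.36 in PLN. The mean of both Dhrs3 probes gave 0.02 in place of 0.77.

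Hic1 differed by -0.54 ± 0.16 (95% interval -0.93 to -0.14, adjusted p = 0.216, limma) in AID KO cells, by -0.24 in MLN and -0.75 in PLN against the paired WT arrays. Fbln2 differed by -0.65 ± 0.20 (adjusted p = 0.237), with spots well above background on 1 of 2 AID KO and 2 of 4 WT arrays, and by -0.12 after normexp correction. The receptors Rara (-0.21 ± 0.10, 95% interval -0.46 to 0.04) and Rarg (0.30 ± 0.14, 95% interval -0.05 to 0.66) did not pass (adjusted p = 0.441 and 0.422, limma). For Tgm2, Osgin1, Dtx4 and Wnt10a the differences were -0.48, -0.29, -0.04 and 0.49, and none passed.

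In uMT cells, 0 of the 9 genes were called, beside 9 called features among all, or 0.035%, and 4 in the paired fit. Among the 9 genes 1 had an unadjusted p under 0.05, against 17.8% of all features. It was Dtx4, higher by 0.46 ± 0.15 log2 units than in WT cells (SE, 95% interval 0.10 to 0.83, adjusted p = 0.218, limma), with 0.29 in MLN and 0.48 in PLN against the paired WT arrays. Its MLN difference was within the 0.36 that separated the 2 WT MLN samples. The other 8 genes had differences between -0.29 for Hic1 and 0.44 for Dhrs3. The intervals reached -0.33 to 0.18 for Rara and -0.32 to 0.39 for Rarg.

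**Figure D4:**
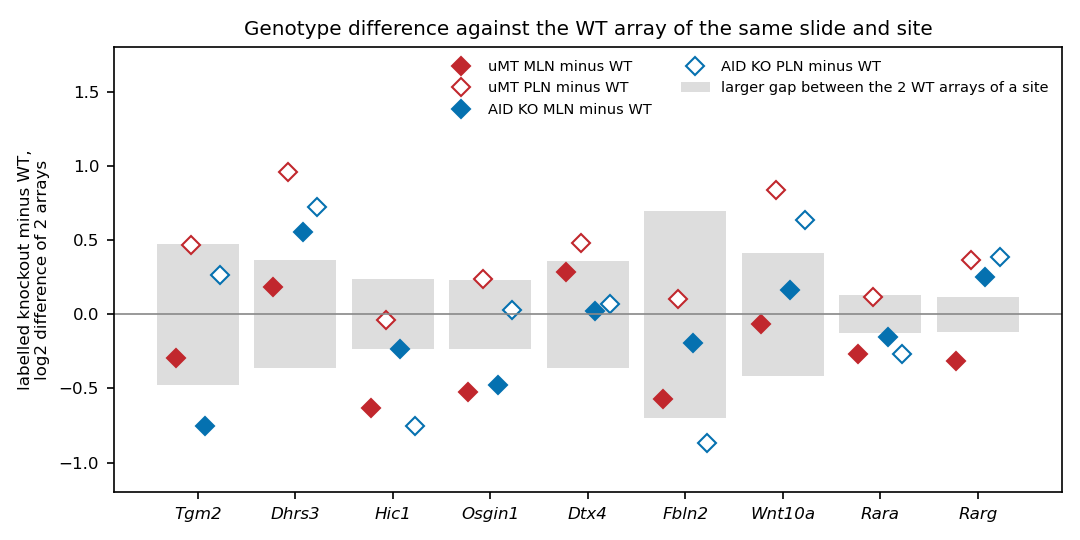
Difference of each labelled knockout array from the WT array that shares its slide and site, in log2 units (filled for MLN, open for PLN), with grey bands spanning the larger of the 2 gaps between WT arrays of 1 site. The 4 points of Rarg lie outside a narrow band, on both sides of 0, and 3 of 4 points do so for Dhrs3, Osgin1 and Rara, 2 of 4 for Hic1 and Wnt10a, and 1 of 4 for Tgm2, Dtx4 and Fbln2. How often points of all features lie outside such a band was not counted, so nothing is read from these counts.

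Whether the difference between sites itself differed between the labelled knockouts and WT was fitted across all features as 1 interaction term for both lines. The limma fit called no feature (0%, with 1103 features at an unadjusted p under 0.05). Since the difference within each genotype went into the choice of the 9 genes, nothing is read from their terms, and their pairs are given as a description. The MLN minus PLN difference of Osgin1 was 2.08 in uMT and 2.13 in AID KO, against 2.86 and 2.61 in the WT pairs. That of Wnt10a was -3.26 in uMT and -3.32 in AID KO, against -2.78 and -2.43 in the WT pairs. Both knockout pairs lay below both WT pairs for Tgm2, Dhrs3, Osgin1, Wnt10a and Rarg. For Dhrs3, however, the AID KO and the first WT pair were both 3.33 after rounding. No PLN spot of Tgm2 or Fbln2 was well above background, nor was the Dhrs3 PLN spot of the second WT pair. The order of the pairs that start from such spots was therefore not measured. The share of all features with such an order was not counted, so nothing is read from how many members had it. For Hic1, Fbln2 and Rara the knockout pairs lay on either side of the WT pairs, and for Dtx4 the uMT pair lay between them.

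In naive PLN cells, the members were compared between Sca1p and Sca1m fractions, and 0 of the 9 genes were called. Over all features 4 of 25737 were called, or 0.0155%. An unadjusted p under 0.05 was found for 5 of the 9 genes, against 8.37% of all features, and of these 5 Dtx4 alone was well above background in both fractions. Dtx4 was -0.72 in uMT Sca1p and -0.17 in AID KO Sca1p cells, against -1.51 in uMT Sca1m and -1.58 in AID KO Sca1m cells. It was thus higher in Sca1p cells of both genotypes, by 0.79 in uMT and 1.41 in AID KO, with a fitted 1.1 ± 0.17 log2 units (SE, 95% interval 0.68 to 1.52, adjusted p = 0.17, limma).

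Dhrs3 stood at -4.86 in uMT Sca1p and -4.64 in AID KO Sca1p cells, both not well above background, against -3.68 in uMT Sca1m and -3.86 in AID KO Sca1m cells, both detected. It was at least 1.79-fold lower in Sca1p cells, with an adjusted p of 0.325 (limma), and its fitted -0.98 was -0.20 after normexp correction. Wnt10a had -4.94 in uMT Sca1p and -4.89 in AID KO Sca1p cells, against -4.06 in uMT Sca1m and -4.34 in AID KO Sca1m cells, and 1 of these 4 spots was well above background (adjusted p = 0.527).

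Tgm2 was not well above background on any naive array, with -5.45 in uMT Sca1p and -4.58 in AID KO Sca1p cells, against -6.92 in uMT Sca1m and -6.55 in AID KO Sca1m cells, so no fold is given. Fbln2 was detected on 1 naive array, at -3.87 in AID KO Sca1m cells, with -6.89 in uMT Sca1p, -5.25 in AID KO Sca1p and -5.70 in uMT Sca1m cells. Hic1 had -2.43 in uMT Sca1p and -2.69 in AID KO Sca1p cells, against -2.02 in uMT Sca1m and -2.27 in AID KO Sca1m cells, a difference of -0.42 in either genotype. For Osgin1, Rara and Rarg the fitted differences were -0.23 ± 0.21, -0.16 ± 0.12 and -0.37 ± 0.17, and none of these passed. Hic1, Osgin1, Rara and Rarg each had a lower value in the Sca1p array of both genotypes.

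Between the naive cells of the 2 labelled knockouts, 90 of 25734 features were called, or 0.35%, and 0 of the 9 genes. Fbln2 came nearest, lower in uMT than in AID KO cells by a fitted -1.74 ± 0.24 log2 units (SE, 95% interval -2.32 to -1.16, adjusted p = 0.0692, limma). Only 1 of its 2 AID KO spots was well above background, the bound was no less than 1.11-fold, and normexp correction gave -0.44. Rara (-0.04 ± 0.12, 95% interval -0.34 to 0.25) and Rarg (-0.12 ± 0.17, 95% interval -0.53 to 0.29) did not pass, nor did the other 6 genes. Of these, Hic1 differed by 0.25, Osgin1 by 0.36 and Dtx4 by -0.24, while Tgm2, Dhrs3 and Wnt10a had spots that were not well above background in both genotypes. Because the 4 naive arrays fill 1 separate slide, cell type and slide cannot be told apart, and naive cells were not set against total cells.

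**Figure D5:**
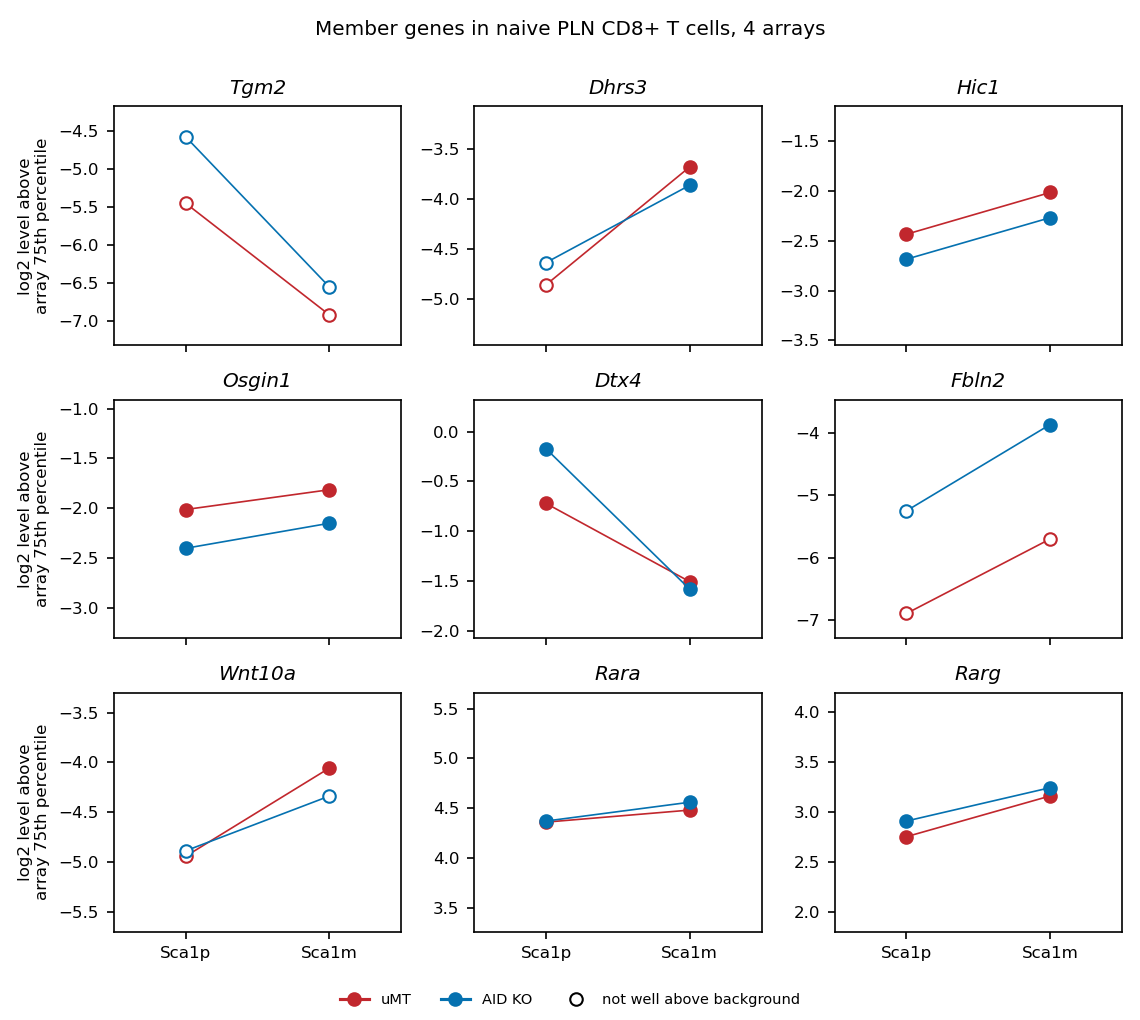
Level of each gene in Sca1p and Sca1m naive PLN cells, in log2 units relative to the array's 75th percentile, with lines joining the 2 fractions of uMT and of AID KO mice and open symbols where the spot was not well above background. Dtx4 and Tgm2 are higher in Sca1p cells of both genotypes, Tgm2 with no spot well above background, and the other 7 genes are lower. Fbln2 and Wnt10a each have 1 spot well above background, and where both joined spots are open their order is not measured.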

How the data were processed

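Total RNA of each CD8+ T cell sample was labelled with Cy3 and hybridised to 1 array. Per the file headers and the submitters' processing notes, spot intensity was extracted by the authors with Agilent Feature Extraction 11.0.1.1, and the processed intensity is subtracted for background. The deposited files also hold other values, flags of 0 or 1 for spots well above background, outlying or saturated. The deposited series matrix holds log2 values, here an alternative.

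From the scanner files, log2 processed intensity was taken minus the 75th percentile of each array, without outlier spots (61 to 342 per array). Probes well above background on at least 2 of 12 arrays were kept, 32103 of 56605, including all 11 probes of the 9 genes. They were named through the printed transcript accession and the RefSeq table of GRCm38.p6, and the brightest kept probe stood for a gene. The number of arrays limits the precision. One limma 3.58.1 fit in R 4.3.3 over all 12 arrays modelled the total-cell arrays by site, slide and each labelled knockout, and the naive arrays by their own mean, genotype and Sca-1 fraction, leaving 4 residual degrees of freedom, or 3 with the interaction. Tests were two-sided and moderated, at a threshold of 0.05 after Benjamini-Hochberg adjustment across every feature. Where no array of a group was well above background, a bound replaces the fold, set against the lowest signal called well above background on each array. Slide comes from the file headers.

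The members, gene lists and tests were chosen with earlier results of these data known. Named were all 9 members, list genes past the threshold between sites, up to 4 of the brightest per list, and the 5 or 3 named genes most correlated with a member profile over the 8 total-cell arrays. Rxrg, the genes listed as not kept, genes that end a stated range and genes picked out after their values were seen were named beside the rule. Alternatives were normexp (on the median signal, since the files used here hold no mean signal, with an offset of 50), quantile normalization, the series matrix, other filters, the mean of probes, fewer samples, no slide term, a replicate block of site and slide that pairs each knockout array with its WT array (named in the titles for PLN, given by the slide for MLN), and leaving out each array. A few further genes are not reported here and were left out of the lists. The fit was tested on simulated data.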

Additional observations from a re-analysis of the deposited data

Results flagged for a closer look

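Differences of opposite sign between groups were seen for 5 genes, and these contrasts of signs were not tested. Between naive uMT and naive AID KO cells, Dhrs3 differed by -0.22 log2 units in the Sca1p fraction and by 0.18 in the Sca1m fraction. Dtx4 differed by -0.55 in Sca1p and 0.076 in Sca1m cells, and Wnt10a by -0.055 in Sca1p and 0.28 in Sca1m cells, in each case uMT minus AID KO from 1 array per group. Both Sca1p spots of Dhrs3 and 3 of the 4 Wnt10a spots were not well above background, so these signs have no measured order. Between sites, Rara was higher in MLN than in PLN in AID KO cells by 0.20, against -0.04 in both WT pairs. Rarg differed by -0.017 in AID KO and by -0.38 in uMT cells, against 0.24 and 0.19 in the WT pairs.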

How the results depend on the processing

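The calls among the 9 genes stayed at 0 in each comparison of genotype and of Sca-1 fraction under every alternative run. The counts of genes with no overlap between sites, 6 higher and 1 lower in MLN cells, were the same with quantile normalization and with the mean of probes, and 5 and 1 with normexp, where the sites overlapped for Fbln2. In the authors' series matrix they were 3 and 0, since 5 of the 9 genes (Hic1, Osgin1, Dtx4, Rara and Rarg) have values there on all arrays. P2rx7 was called between sites in 20 of 20 alternatives and Dtx1 in 12 of 20. Counts over all features moved more. Between MLN and PLN, 27 calls became 16 without a filter, 57 with a filter of 4 arrays, 61 with normexp and 61 in the series matrix, and 2 to 24 without 1 array, the fewest without either AID KO array. For AID KO against WT, 230 calls became 49 without a filter, 86 without the slide term, 15 with site and slide as a replicate block, 365 with normexp, 382 with the stricter filter and 580 in the series matrix, and 1 to 163 without 1 array. For uMT against WT, 9 calls became 0, 2, 4, 53, 47 and 72 under the same settings, 18 with quantile normalization and 0 to 9 without 1 array. The interaction had 0 calls, but 23 with normexp, 17 in the series matrix and 1 with the stricter filter. For Sca1p against Sca1m, 4 calls became 0 without a filter or with naive arrays only, 11 with normexp, 13 in the series matrix, 10 with the stricter filter, and 0 to 173 without 1 array, the most without either naive uMT array. For naive uMT against AID KO, 90 calls became 0 with naive arrays only, 29 with normexp, 17 in the series matrix, 42 with the stricter filter, and 25 to 213 without 1 array. The causes were not tested. The replicate block set each knockout array against the WT array with which it shares site and slide, a paired fit that left the calls among the 9 genes at 0. For PLN the titles name these controls, and for MLN the slide gives them. Signal near background limits Tgm2, Fbln2 and Dhrs3 in PLN total cells and in naive cells. It also limits Fbln2 in MLN cells, and Wnt10a in MLN and naive cells. Every comparison of genotype is limited by 1 array per knockout and site.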
